A study of Mus musculus with 2 samples.

Results

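Salt-inducible kinases and the cyclic AMP (cAMP) response genes around them were examined in a map of EP300 binding in the newborn mouse lung. The group holds 10 genes: the kinase genes Sik1, Sik2 and Sik3, the transcription factor genes Creb1 and Crem, the coactivator gene Crtc2, the nuclear receptor genes Nr4a1, Nr4a2 and Nr4a3, and the phosphodiesterase gene Pde4d. A peak was taken as theirs when its summit lay inside the gene body, or when the nearest protein-coding transcription start site, at most 100 kb away, was theirs. This gave 112 of the 43988 peaks of the optimal set, the authors' list of reproducible peaks. The members were chosen by the peaks measured here, so their counts and signals are given as a description with no test, and the nearest start site is not a measured link between a peak and a gene. EP300 is a lysine acetyltransferase that DNA-bound factors recruit to enhancers and promoters, and its binding was mapped by ChIP-seq, which sequences the DNA that an antibody brings down with a protein. The tissue was whole lung from B6NCrl mice at postnatal day 0, with no treatment in the labels and sex not collected. The 2 libraries form 1 group and carry biological replicate numbers 1 and 2. Both cite the same donor and the same biosample, so nothing in the labels says that they came from separate animals, and their spread can be that of the procedure alone.

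cAMP is made by adenylyl cyclases downstream of G protein-coupled receptors and activates protein kinase A (PKA). PKA phosphorylates CREB, which then binds EP300 and its relative CBP, and it inhibits the salt-inducible kinases, which otherwise hold the CRTC coactivators in the cytoplasm. CREB and CRTC act at the cAMP response element (CRE), and Sik1, Crem and the Nr4a genes are textbook targets, while PDE4 enzymes degrade cAMP. In lung the pathway is known for relaxing airway and vascular smooth muscle and for promoting surfactant secretion and fluid clearance in alveolar epithelium.

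Of the 10 genes, 8 had at least 1 peak assigned by start site, as did 47.1% of all 21827 protein-coding genes. At least 9 such peaks were found at 4 of the 10 genes (3.98% of all genes) and at least 29 at 2 (0.115%). These bounds are members' own counts by start site, 9 at Sik3 and Nr4a1 and 29 at Pde4d. The shares therefore only place those genes among all genes. Sik1 (38 peaks) and Pde4d (40) held 69.6% of the 112. There were 15 at Sik3, 9 at Nr4a1, 4 at Nr4a3, 3 at Crem, 2 at Sik2 and 1 at Nr4a2, and none at Creb1 and Crtc2. The signal value, the authors' own measure of a peak's height, ran from 11.4 to 382 with a median of 51.8, against 48.5 over all optimal peaks. Of the 112, 4 were among the strongest 500 peaks (1.14% of all optimal peaks). Introns held 64 of the peaks, intergenic sequence 46 and exons 2, and 7 lay within 1 kb of a start site (6.25%, against 12.3% of all optimal peaks). Neighbouring peaks can overlap, and merging them left 94 separate regions.

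**Figure D1:**
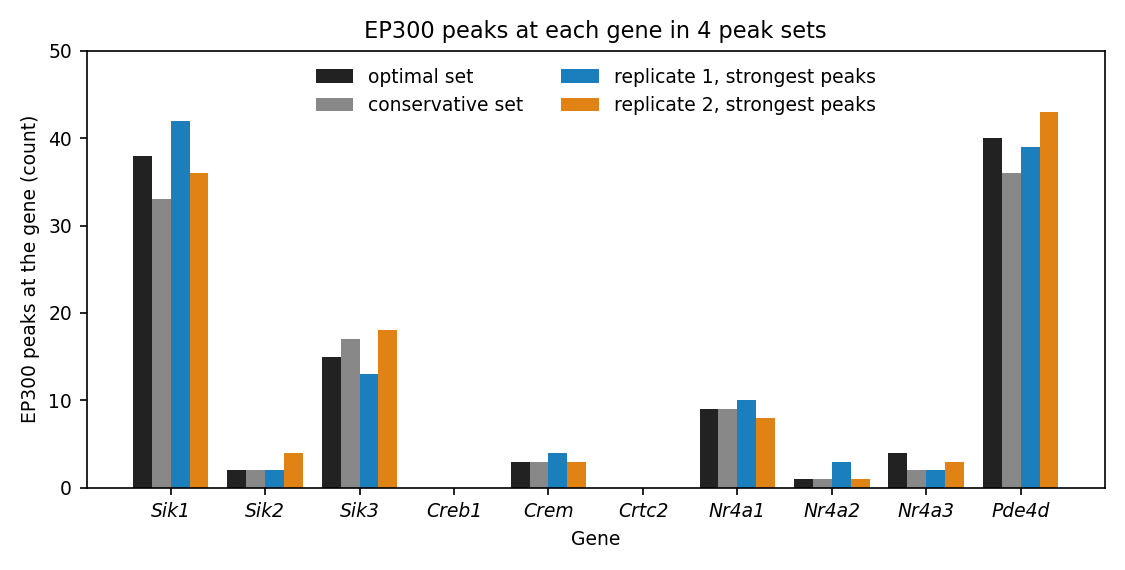
Bars give the number of EP300 peaks at each of the 10 genes in the optimal set, the conservative set and the strongest 43988 peaks of each library. Sik1 and Pde4d stand above the other genes in all 4 sets, and Creb1 and Crtc2 have no bar in any.

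The sequences under the summits show which DNA the peaks cover, and 3 groups of them are printed because the results below turn on them. Each is the 100 bp window around a summit on mm10, read from RefSeq GRCm38.p6. The first group is the strongest peak of each Nr4a gene, printed on the strand where the motif reads TGACGCA, with that motif in capitals. TGACG, called the CRE half-site here, begins the palindrome TGACGTCA on either strand. A full CRE therefore counts as 2 overlapping half-sites.
Nr4a1, chr15:101266551-101266650, minus strand: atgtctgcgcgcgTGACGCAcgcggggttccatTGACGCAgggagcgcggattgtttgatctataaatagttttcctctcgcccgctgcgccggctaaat
Nr4a2, chr2:57116818-57116917, plus strand: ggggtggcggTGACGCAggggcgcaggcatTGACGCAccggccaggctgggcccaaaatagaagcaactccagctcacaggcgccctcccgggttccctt
Nr4a3, chr4:48043426-48043525, minus strand: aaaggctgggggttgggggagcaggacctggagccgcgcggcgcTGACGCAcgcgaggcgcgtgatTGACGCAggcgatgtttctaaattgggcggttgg

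The second group holds 2 intronic peaks with a full CRE, in capitals, on the plus strand.
Sik3, chr9:46029695-46029794: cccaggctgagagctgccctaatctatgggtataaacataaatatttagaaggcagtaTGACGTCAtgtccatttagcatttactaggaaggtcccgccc
Pde4d, chr13:109822520-109822619: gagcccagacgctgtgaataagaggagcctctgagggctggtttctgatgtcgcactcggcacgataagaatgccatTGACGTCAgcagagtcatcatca

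The third group holds the 3 strongest peaks upstream of Sik1 and the peak next to its start site, on the plus strand. Capitals mark any match to the 9 motifs searched: a TEAD site (GGAATG or its complement) in the first and an ETS site (CCGGAAG) in the last.
Sik1, 56.7 kb upstream, chr17:31912449-31912548: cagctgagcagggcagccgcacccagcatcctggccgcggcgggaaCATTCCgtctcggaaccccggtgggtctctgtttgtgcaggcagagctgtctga
Sik1, 41.8 kb upstream, chr17:31897517-31897616: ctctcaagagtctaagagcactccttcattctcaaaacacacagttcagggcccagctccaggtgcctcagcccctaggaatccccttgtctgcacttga
Sik1, 50.2 kb upstream, chr17:31905931-31906030: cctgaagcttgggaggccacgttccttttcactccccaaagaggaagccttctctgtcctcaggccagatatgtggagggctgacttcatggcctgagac
Sik1, 0.971 kb upstream, chr17:31856725-31856824: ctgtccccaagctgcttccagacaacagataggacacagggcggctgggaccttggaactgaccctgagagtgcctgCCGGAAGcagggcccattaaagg

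Sik1, the cAMP-inducible member of the kinase family, lay in one of the EP300 clusters with the most peaks and the highest summed signal. By peaks assigned to a start site it ranked 7 of 21827 genes, next below Tcf4 (43 peaks), Stard13 (41) and Sgms1 (39) and next above Ptpn1 (35), Foxp1 (35) and Shroom3 (34). The stretch of DNA nearest to the Sik1 start site measured 178 kb, so its peaks numbered 21.3 per 100 kb, against 2.31 per 100 kb over all genes and 24.8 at Nr4a1. These densities count overlapping peaks separately. Merging them left 31 regions at Sik1 and 7 at Nr4a1. At Sik1, replicate 1 alone gave 42 peaks and replicate 2 alone 36 (mean 39 ± 4.24, SD, n = 2).

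Of the 38 Sik1 peaks, 36 formed a single cluster at chromosome 17, 31826833 to 31944317 (117 kb), in which no gap between neighbours exceeded 11.9 kb. The nearest peak outside was 18.3 kb off. It ranked 3 of 20802 clusters (single peaks included) by summed signal and 3 by number of peaks. It ranked 5 by either measure in each library alone, where it held 32 peaks in replicate 1 and 30 in replicate 2. In the conservative set it held 23 peaks over 64.4 kb and ranked 6 by summed signal and 13 by number of peaks. The extent depends on the joining distance: with peaks joined only within 5 kb, the piece with most peaks held 9. The gene itself (31844250 to 31855804, minus strand, 11.6 kb) held 1 weak peak at its 3′ end, with a signal of 28.7. Upstream of the start site lay 30 peaks with 88.6% of the cluster's signal, and 6 lay downstream. A stretch 40 to 70 kb upstream held 16 peaks and 58.6% of the signal.

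The strongest Sik1 peak (chromosome 17, 31912329 to 31912640) had a signal of 382, with 205 in replicate 1 and 176 in replicate 2, where it ranked 91 and 80 of 300000. The next (31897418 to 31897734) had 349, with 197 and 151 in the libraries. The third (31905811 to 31906079) had 305, with 190 and 121. All 3 rank among the strongest 500 peaks of the optimal set, and the same 3 lead the Sik1 peaks in both libraries. These sites are intergenic with respect to protein-coding genes. The second summit lies in the body of the long noncoding RNA gene AC138228.1, which held 2 of the peaks, and the genes AC138228.2 and AC138228.3, also in the cluster, held none. The peak nearest to the start site (31856563 to 31856986) had a signal of 206, with 112 and 89.8 in the libraries. Its summit was 0.971 kb upstream and it was the one Sik1 peak within 1 kb. At the far end, the upstream peak with a signal of 135, 88.3 kb away, lay just short of the 3′ end of Hsf2bp (31944769), the next protein-coding gene.

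**Figure D2:**
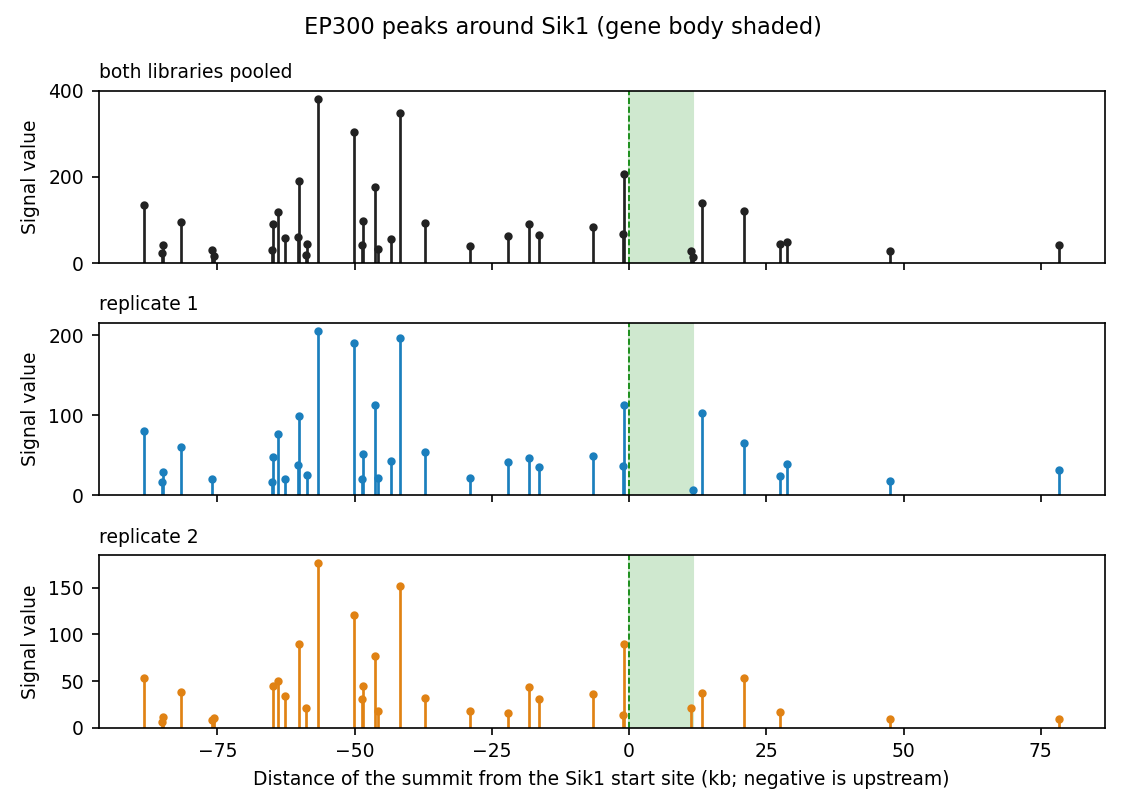
Each stem is a Sik1 peak at its distance from the start site (kb, negative upstream) with its signal value in the pooled list (top), replicate 1 (middle) and replicate 2 (bottom). The 3 tallest stems, 41.8, 50.2 and 56.7 kb upstream, are the same in both libraries, and peaks without a partner within 100 bp in a library are missing from its panel.

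Sik2 and Sik3, the more broadly expressed kinases of the family, carried fewer peaks than Sik1, and their strongest peaks were weaker. At Sik3 all 15 peaks were intronic, in a gene body of 211 kb at chromosome 9, 46012820 to 46224194, which is 7.10 per 100 kb against 2.25 over all protein-coding gene bodies. None was within 1 kb of the start site, and the closest was 1.70 kb inside the gene. The strongest (46175938 to 46176361) had a signal of 133, with 78.1 in replicate 1 and 54.9 in replicate 2. It is 1 of 5 in the 3′ part of Sik3 whose nearest start site is that of Apoa1, the gene of the main high-density lipoprotein protein. These 5 were all of the optimal peaks that the nearest start site gave to Apoa1. The peak with the CRE, 16.9 kb inside the gene (46029533 to 46029956), had a signal of 106, with 61.4 and 46.0 in the libraries. Sik3 counted 13 peaks in the list of replicate 1 and 18 in that of replicate 2 (mean 15.5 ± 3.54, SD, n = 2).

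At Sik2 there were 2 intronic peaks and none within 1 kb of its 2 start sites. The stronger (chromosome 9, 50925746 to 50926169) had a signal of 90.3, with 54.2 in replicate 1 and 36.1 in replicate 2, and its nearest start site was that of Ppp2r1b. The weaker (50986646 to 50987069) had 44.9, with 20.1 and 22.1, and was 22.1 kb inside the gene. Replicate 2 alone listed 4 peaks at Sik2 and replicate 1 listed 2.

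The CREB and CRTC genes of the group were split: Creb1 and Crtc2 had no peak, and the strongest of those at Crem was at an internal site. Creb1, which encodes the constitutive CRE-binding factor, had no optimal peak, and the nearest one was 206 kb from a start site. Crtc2, which encodes a CREB coactivator that SIK kinases phosphorylate, had none either, although the stretch nearest to its start site measured just 8.51 kb. The longer lists that were not filtered for reproducibility did hold a weak peak at both promoters. In the pooled list of 300000, the strongest peak within 1 kb of a Creb1 start site had a signal of 21.9 (rank 63922) and that of Crtc2 had 24.7 (rank 54485). At Creb1 the strongest such peak was not the same one in the libraries: it had 15.5 at 280 bp in replicate 1, and 13.1 at 859 bp, the distance of the pooled peak, in replicate 2. At Crtc2 the library values were 13.5 and 11.5, with summits 11 and 23 bp from the start site. In that list 54% of all genes have such a peak, and all 10 genes of the group do, so a peak there sets neither gene apart.

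Crem encodes activator and repressor forms of a CRE-binding factor, and its short repressor ICER is made from an internal promoter that is known to be induced by cAMP through CREs of its own. Crem had 3 peaks. The strongest (chromosome 18, 3281131 to 3281238, 108 bp wide) had a signal of 289 and rank 293 of the optimal set, with 161 in replicate 1 and 126 in replicate 2, ranks 291 and 337 of those lists. Its summit fell 4 bp upstream of an internal start site (3281132), inside an intron of the full gene (3266048 to 3337748, minus strand). The peak at the 5′ promoter (3337613 to 3338036) was 77 bp upstream of the first start site. It had a signal of 86.0, with 63.4 in replicate 1 and 26.5 in replicate 2. In both libraries the peak at the internal site was thus the higher of these 2. Crem has 18 start sites, and those elsewhere in the gene had no optimal peak within 1 kb. The last peak, 32.2 kb beyond the start sites at the strongest peak, had 68.2, with 49.4 and 17.4.

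The Crem internal peak held 2 full CREs within 50 bp of the summit, 1 on either side, centred 31 and 36 bp away. It was the one peak of the whole optimal set with 2 or more.

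The Nr4a genes encode orphan nuclear receptors that are switched on within minutes by cAMP and other signals. Nr4a1 had 9 peaks in the stretch of 36.3 kb nearest to its start sites, which is 24.8 per 100 kb. It has 2 start sites and a peak at each. An optimal peak within 1 kb of a start site was present at 5 of the 10 genes (Sik1, Crem, Nr4a1, Nr4a3 and Pde4d) and at 20.5% of all genes. The peak at the downstream one (chromosome 15, 101266504 to 101266653), 245 bp upstream of 101266846, had a signal of 146, with 72.3 in replicate 1 and 69.8 in replicate 2. The peak at the upstream one (101253834 to 101254257) had 41.8, with 26.1 and 14.4. A further peak at the end of the gene (101274383 to 101274806), in its 3′ untranslated region, had 83.9. The other 6 ranged from 13.6 to 60.7. Replicate 1 alone listed 10 Nr4a1 peaks and replicate 2 listed 8.

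Nr4a3 had 4 peaks. The strongest (chromosome 4, 48043264 to 48043687), 1.68 kb upstream of the start site, had a signal of 108, with 59.4 in replicate 1 and 47.3 in replicate 2. Another at 187 bp upstream had 40.2, with 15.8 and 19.2. The farthest, 96.1 kb upstream, was weak (30.8, with 9.56 and 21.6) and was the one closest to the 100 kb limit among member peaks outside gene bodies. The conservative set held 2 of the Nr4a3 peaks.

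Nr4a2 had a single peak (chromosome 2, 57116656 to 57117079) with a signal of 104, 62.0 in replicate 1 and 44.9 in replicate 2. It lay in an intron, 1.83 kb upstream of the middle one of 3 start sites. Just outside the limit, 2 overlapping peaks 130 kb from a start site of Nr4a2 had signals of 109 and 16.1 and were not counted.

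The strongest peak of each Nr4a gene covered the same sequence arrangement, a pair of TGACGCA motifs in the same direction. Their first bases were 20 bp apart at Nr4a1, 20 bp apart at Nr4a2 and 22 bp at Nr4a3, as the sequences printed above show. At least 1 TGACGCA was in 4 of the 112 peaks and in 0.814% of all. Of all 43972 optimal peaks on the chromosomes, 8 (0.0182%) had 2 or more TGACGCA in the central 100 bp on either strand, and these 3 are among them. This motif was looked for after the sequences had been seen, and the 3 genes are paralogues, so they are not independent cases. The RefSeq promoters (250 bases before to 50 after the start) had an entry for 7 of the 10 genes, not for Sik1, Crem and Crtc2. Those of Nr4a1, Nr4a2 and Nr4a3 held 4 CRE half-sites each, a number reached by 0.231% of the 32851 promoters in that table. A single half-site or more was in 20.8% of them. Sik3 had 3 and Sik2 had 2, and Creb1 and Pde4d had none. The Nr4a1 promoter contains the summit of the peak printed above, so its half-sites include those already shown. No optimal peak overlapped the Nr4a2 promoter. That of Nr4a3 was overlapped by a weaker peak whose summit lay outside it.

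**Figure D3:**
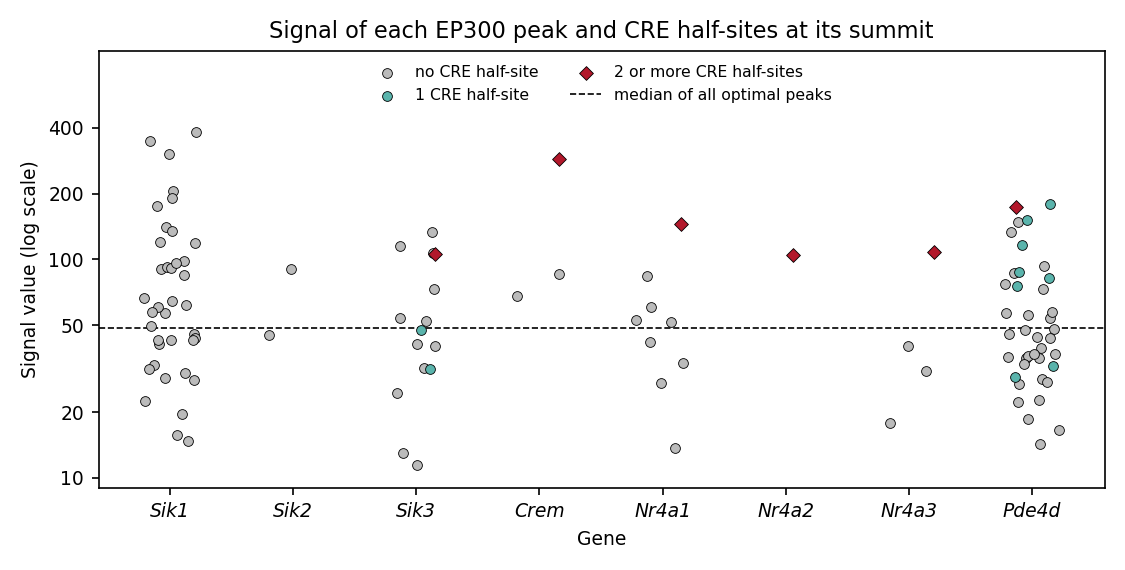
Each point is an EP300 peak, with its signal value on a log axis, by gene. Diamonds mark 2 or more CRE half-sites in the central 100 bp, which the strongest peaks of Crem, Nr4a1, Nr4a2 and Nr4a3 have. No Sik1 peak has any in that window. The dashed line is the median of all optimal peaks (48.5).

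Pde4d encodes a cAMP phosphodiesterase with many promoters, whose short forms are induced by cAMP. All 40 of its peaks were intronic, spread over a gene of 1504 kb (chromosome 13, 108449948 to 109953461). This is 2.66 per 100 kb of gene body, close to the 2.25 over all protein-coding gene bodies, and by the stretch nearest to its start sites it had 2.29 per 100 kb, against 2.31 over all genes. Over the 59 genes of at least 1 Mb the density was 0.833 per 100 kb of body, and among them Pde4d ranked 3 by number, with a median of 4. The peaks were not evenly spread, and 27 of the 40 lay between 0.7 and 1.3 Mb from the 5′ end. Of its 9 start sites 1 had a peak within 1 kb, with a signal of 48.0 (31.6 in replicate 1 and 16.2 in replicate 2). The gene was in the group by its body for 11 peaks that were over 100 kb from any start site.

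The strongest Pde4d peak (109315826 to 109315963) was 126 kb from the nearest start site and had a signal of 178, with 102 in replicate 1 and 81.8 in replicate 2. The next (109822358 to 109822781), with the CRE printed above, had 173, with 94.7 and 84.0. A further 4 peaks exceeded 100. Replicate 1 alone gave 39 peaks and replicate 2 gave 43 (mean 41 ± 2.83, SD, n = 2). Just outside the rule, a peak 136 kb from a Pde4d start site, beyond the gene, had a signal of 27.3.

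**Figure D4:**
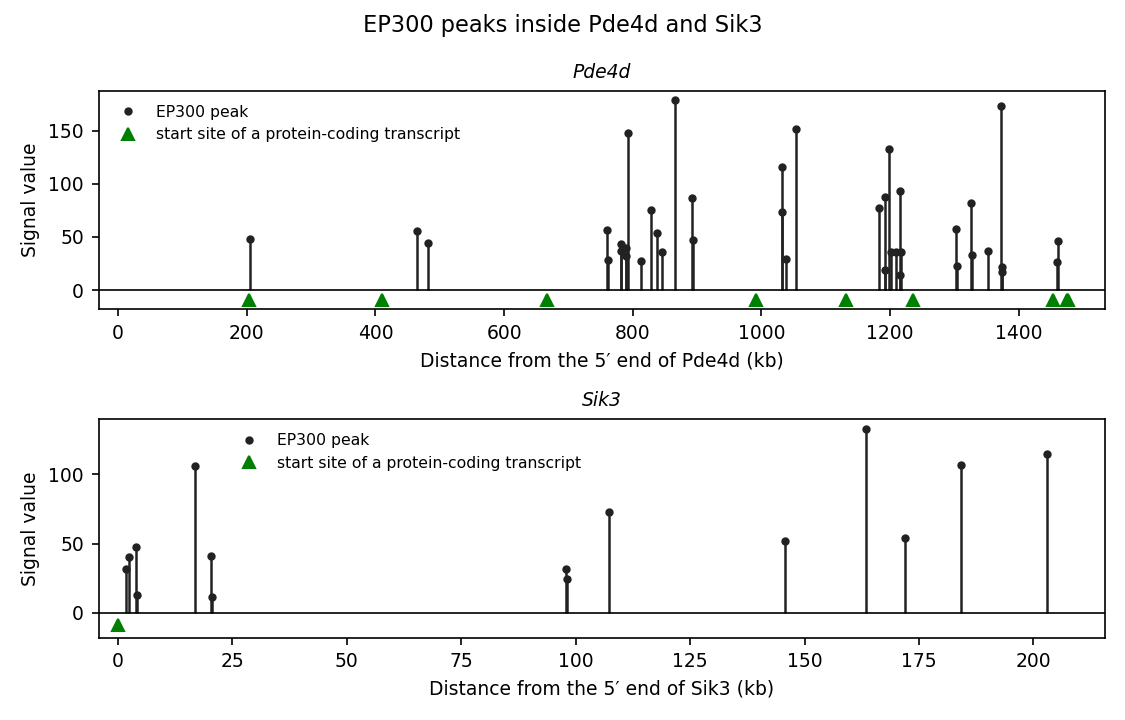
Stems show EP300 peaks by distance from the 5′ end of Pde4d (top) and Sik3 (bottom), in kb, with the signal value in the pooled list, and triangles mark start sites. Of the 40 Pde4d peaks 27 lie between 0.7 and 1.3 Mb, and the 15 Sik3 peaks lie in its first part, its middle and its 3′ part.

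CRE half-sites differed in number between the genes of the group. In the central 100 bp, 16 of the 112 peaks (14.3%, 95% Wilson interval 8.99 to 21.95%) held TGACG on either strand, against 6.73% of all optimal peaks. The interval covers the counting of peaks only. It takes the peaks as independent, although 69.6% lay at 2 genes and 32.1% overlapped another optimal peak. The genes were also chosen with these data known, so it is not a test against all peaks. All 16 were outside Sik1: 0 of 38 Sik1 peaks had one, which allows up to 9.18% by the same interval. The absence held for the 100 bp window only. With a window of 200 bp 5 of the 38 had one, against 12.1% of all optimal peaks. Among the other genes Pde4d had 9 peaks with a half-site in the 100 bp window, Sik3 3, and Crem, Nr4a1, Nr4a2 and Nr4a3 1 each. At least 2 half-sites were in 6 of the 112 (0.712% of all), and those at Crem, Sik3 and Pde4d reached this through a full CRE. Among member peaks with a signal of at least 100, 9 of 24 had a half-site, against 9.07% of all optimal peaks of that signal, and these 9 are of the 14 outside Sik1. Among weaker ones it was 7 of 88, against 6.32%. Within 1 kb of a start site it was 2 of 7 (9.84% of all such peaks), and elsewhere 14 of 105 (6.29%). The full CRE (TGACGTCA, which includes 2 half-sites) was in 3 peaks, at Crem, Sik3 and Pde4d (0.403% of all peaks).

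The other motifs searched were in at most 7 of the 112 peaks each. The palindromic glucocorticoid response element, which is in 2.17% of all peaks, was in 0 of 112. The interval, with the limits given above, allows up to 3.32%. The NR4A site itself (AAAGGTCA) was in 0 as well (0.821% of all peaks). The AP-1 site (TGACTCA) was in 4, all at Pde4d (5.94% of all), the FOX site (TGTTTAC) in 7 (5.35%), the TEAD site in 7 (11.7%), of which 4 were at Sik1, and the ETS site in 3 (2.16%). The C/EBP site (TTGCNNAA) was in 4, all at Pde4d (8.7% of all). A match is only a match of letters, and its absence in these windows says nothing of the factor.

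The libraries shared most of these peaks. Of the 112, 87 (77.7%) had a summit within 100 bp in the full lists of both libraries (300000 peaks each), against 85.9% of all optimal peaks. A further 15 had a partner in replicate 1 alone, 8 in replicate 2 alone and 2 in neither. With each library's strongest peaks only, the share in both was 60.7%. The 87 shared ones had a median log2 ratio of replicate 1 over replicate 2 of 0.42, against 0.40 over all peaks. Of these, 76 were within 2-fold of the latter. The ratios ran from -1.26 to 1.72. Crem peaks had the highest median, 1.26. A share of 32.1% of the member peaks overlapped another optimal peak, against 20% of all. In the conservative set 88 of the 112 recurred with the same coordinates, as did 80.1% of all optimal peaks.

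**Figure D5:**
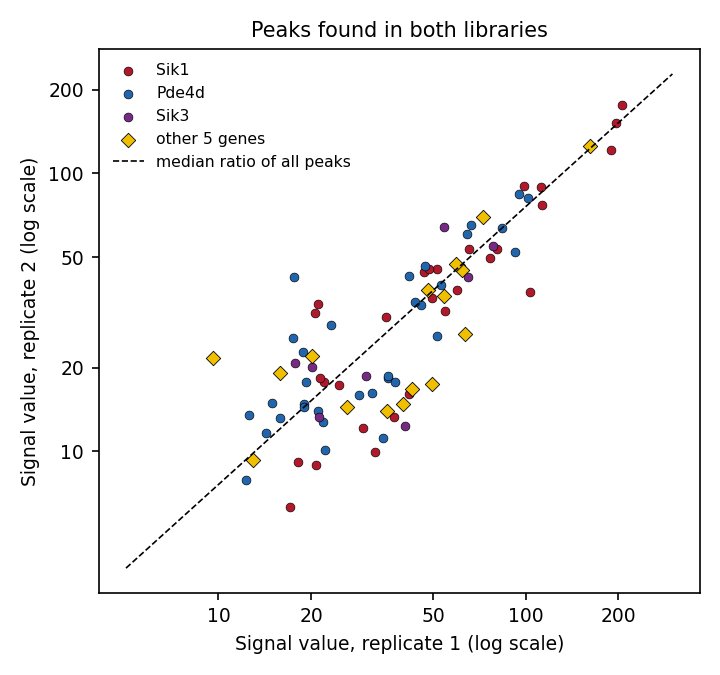
Signal values of the 87 shared peaks in replicate 1 (x) and replicate 2 (y), both on log axes, coloured by gene; the dashed line is the median ratio of all optimal peaks. Points near the upper right lie close to the line, and weaker peaks scatter more widely around it.

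Other genes of the pathway, from lists written with results of these data known, are given as counts of genes with a peak by start site, beside 47.1% of all genes and a median of 0 peaks. Of 19 genes of cAMP synthesis and PKA, 15 had a peak (median 2), led by Pkig with 6 and Prkar1a with 4. Of 11 receptors that raise cAMP in lung, 9 had one (median 3), among them the adrenergic receptor gene Adrb1 with 9. Of 12 phosphodiesterase and anchor genes, 10 had one (median 5.5), led by Pde4b with 24 and the anchor gene Akap13 with 16. These counts are not scaled to the stretch nearest to a gene's start sites. It measured 637 kb at Pde4b and 173 kb at Akap13, against a median of 47.4 kb over all genes. By library, Pde4b counted 25 in replicate 1 and 23 in replicate 2, and Adrb1 counted 10 in each.

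Of 7 CREB partner genes, 5 had a peak (median 5), led by Creb5 and Crebbp with 6 each, and Ep300 itself and Crtc1 had none. All 7 genes upstream of SIK kinases or encoding their substrates had one (median 3), led by the class IIa deacetylase genes Hdac7 and Hdac4 with 8 each. Of 12 AMPK-related kinase genes, 9 had one (median 2), led by Snrk with 17 and Nuak2 with 9. Of 16 known CREB targets, 13 had one (median 5.5), led by Dusp1 with 21 and Fos with 18, while Egr1, Pck1 and Sst had none.

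The tissue label was checked on 9 genes expressed in lung, not all of them particular to it, such as the endothelial genes Pecam1 (10 peaks) and Cdh5 (13). All 9 had a peak, among them Nkx2-1 (7), Sftpc (3) and Hopx (18). The lung genes had 2 to 18 peaks each. Of 9 genes that define other tissues, 3 had one, against 47.1% of all genes. These were Neurod1 (4 peaks, more than Sftpc), Ins2 (2) and Krt20 (1), and Alb, Ttr, Myh6, Myl2, Gad1 and Umod had none. Whole lung mixes many cell types, so a strong signal in few cells and a weak one in many cannot be told apart. The files give no read counts, so the depth behind the signal values is unknown.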

How the data were processed

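Peak lists of EP300 ChIP-seq from 2 libraries of newborn mouse lung were used. Per the labels and the notes deposited beside the peak lists, reads were aligned to mm10, and peaks were listed by library and for the pool (300000 each). An optimal (43988) and a conservative (42473) set passed a threshold on the irreproducible discovery rate (IDR). No aligner, caller or IDR version is given in the sources used here. A control experiment named in the labels was not analysed here. Each peak's signal value is the one the authors deposited, with no scaling stated. Values in the optimal set are on the scale of the pool, and each library has its own.

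Start sites were those of protein-coding transcripts of the basic GENCODE set (release M21, GRCm38), and 16 optimal peaks off the 21 chromosomes were left out. For counts of peaks and clusters, each library alone was represented by its strongest 43988 peaks. Partners of a peak, and its signal value in a library, were taken from that library's full list of 300000. The conservative set is not a subset of the optimal one: 80.1% of optimal peaks recur in it with the same coordinates. Motifs were exact matches on both strands in 100 bp. All 10 members were named, with their strongest peak, the one nearest a start site and peaks with a motif, up to 2 genes per further list, 3 rank neighbours on either side and the genes in the Sik1 cluster. Further genes named were chosen after values were seen: list members without a peak, Hsf2bp, Apoa1, Ppp2r1b, Gatad2b, Krt20 and those with paired motifs. So were the bounds within the Sik1 cluster and Pde4d. Members, lists and motifs were chosen with earlier results of these data known. Some items these choices cover are not reported here. No test was run. Assignment, matching, clustering and motif search were tested on simulated data. The software was pandas 2.3.3 and numpy 2.4.6 under Python 3.11.15, with scipy 1.17.1, and figures came from matplotlib 3.10.9.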

Additional observations from a re-analysis of the deposited data

How the results depend on the processing

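The number of genes with a peak was 8 under each of the 7 alternatives tried for it. Counting just the stronger 50% of the optimal set gave 58 peaks at 8 genes of which 3 had a promoter peak. In that set 93.1% of peaks were in both libraries, 20.7% had a CRE half-site, the Sik1 cluster held 12 peaks and the median signal was 90.7. Shares over all optimal peaks under the settings of this paragraph are not given, except for the 200 bp window. Over all optimal peaks, half-sites were in 9.07% of those with a signal of at least 100 and in 6.32% of weaker ones. With the conservative set the Sik1 cluster held 23 peaks, as a shorter joined run, while Sik1 as a whole had 33. The median signal of member peaks was 55.4 in that set, and the cause of this shift was not tested. Joining peaks within 5 kb left 9 peaks in the piece with most peaks of the Sik1 cluster. Leaving out either library gave 115 to 116 peaks at the genes, 5 to 6 genes with a promoter peak, 12.9 to 16.5% with a CRE half-site and 30 to 32 peaks in the Sik1 cluster. The share found in both libraries was 58.0% with summits within 50 bp, 96.4% with any overlap of 1 bp and 60.7% among each library's strongest peaks. With a window of 200 bp, 25% of member peaks had a CRE half-site, against 12.1% of all optimal peaks. Keeping just the strongest of overlapping peaks, an alternative chosen after seeing the data, gave 17.0%, and merging overlaps, also added then, gave 94 regions. Counts at single genes moved at Sik2 (4 in replicate 2 alone), Nr4a2 (3 in replicate 1 alone) and Nr4a3 (2 in the conservative set and 2 in replicate 1 alone). The glucocorticoid response element was in 0 peaks under each of the 5 alternatives tried for it. No paired analysis was possible because the 2 libraries form 1 group.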

Other observations

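Optimal peaks outside the group with 2 TGACGCA motifs in the central 100 bp were nearest, among others, to Trim25 (signal 134.5, 24.9 kb away), Fh1 (90.3, 1.77 kb), Pde10a (49.6, 16.9 kb) and Slc35f3 (38.6, 120 kb). Pde10a, like Pde4d, encodes a phosphodiesterase that degrades cAMP. The Nr4a1, Nr4a3 and Nr4a2 peaks took places 1, 3 and 4 among the 8 by signal (146, 108 and 104), and Trim25 place 2.

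The strongest optimal peak within 50 kb of the Crtc2 start site had a signal of 213 (rank 865, chromosome 3, 90279782 to 90280205), with 128 in replicate 1 and 83.3 in replicate 2. It lay 25.8 kb away and its nearest start site was that of Gatad2b, so it was not counted for Crtc2. All of these items were singled out after their values were seen.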
